A study of Homo sapiens with 12 samples.

Results

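The transcripts of untreated HSC-3 cells were described from 4 of the 12 libraries of the series, those labelled untreated. HSC-3 is an established human cell line from an oral squamous carcinoma, and the labels give no genetic change in it. The cells were grown in medium with serum and given no drug. The other 8 libraries came from the same line after 3 hours with 25 µM cyclopiazonic acid (CPA), an inhibitor of the SERCA calcium pump of the endoplasmic reticulum, 4 of them with the ORAI channel inhibitor synta-66 added at a dose the labels do not state. The untreated group is 1 line in 1 culture condition with no vehicle named, and the labels do not say that its 4 libraries came from separate cultures, so their spread, and p-values resting on it, may be technical. All 60673 annotated features other than the 2 mitochondrial ribosomal RNAs were ranked by mean read count in CPM (counts per 1e6 gene reads) over the 4 libraries, and the 100 highest are described here, each with the coding gene whose exons lie on the opposite strand.

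Squamous carcinoma cells come from the stratified lining of the mouth, whose basal cells make keratin pairs, cadherins and desmosomal proteins and mature into flattened, cornified cells. Invasive carcinoma lines often carry mesenchymal proteins such as vimentin, matrix-degrading proteases and high levels of the epidermal growth factor receptor beside their epithelial proteins. Every dividing cell also expresses glycolytic, cytoskeletal and ribosomal genes at high levels, and these usually head the list of its transcripts.

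Gene reads numbered 2819486 to 4428584 per untreated library, which was 3.58% to 6.16% of their uniquely aligned reads. The mitochondrial ribosomal RNAs took 1.14% of gene reads in replicate 2, 11.7% in replicate 1, 11.8% in replicate 4 and 39.6% in replicate 3. They were left out of the library sizes except in the drug comparisons. Between the libraries, log2(CPM + 1) of the features at 1 CPM or more correlated with Pearson's r of 0.921 to 0.954 over 6 pairs, across features that are not independent replicates. A mean of at least 1 CPM was reached by 14100 features, 1342 reached 100 CPM and 138 reached 1000 CPM, while 36186 features had no read in any of the 4. A count of 0 allowed a level of up to 0.784 to 1.21 CPM per library, from a limit of 3 counts that covers counting error only.

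Most of the abundant features of these cells lay opposite the exons of well known coding genes. Of the 100, GENCODE classed 48 as long noncoding RNAs and 31 as coding genes, and 15 had identifiers with no entry in GENCODE 44. Coding exons lay opposite 81 of the 100, a single coding gene for 63 of them and several for 18. Of the 14100 features at 1 CPM or more, 5112 had a coding exon opposite. Over all features, those with a coding exon opposite held 78.3% ± 3.12 (SD, n = 4) of the reads, those with no entry 11.1% ± 3.47, and those with no annotated exon or coding gene opposite 4.48% ± 0.403. For all 80 features whose largest opposite gene had reads of its own, the feature's count exceeded that gene's, by a median of 226 times and by between 6.59 and 2807 times. These features were picked for their high counts, which favours such an excess, and the ratio over all features was not counted. TOP3B, the largest opposite gene of PPM1F-AS1, had no read of its own. The plot of each feature against the gene opposite it shows every point above the line of equal counts. Reads of a feature's own transcript cannot be told apart from reads of the gene opposite it in these counts, so below a gene is said to be read at the feature opposite it. The cause of this layout was not tested.

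**Figure D1:**
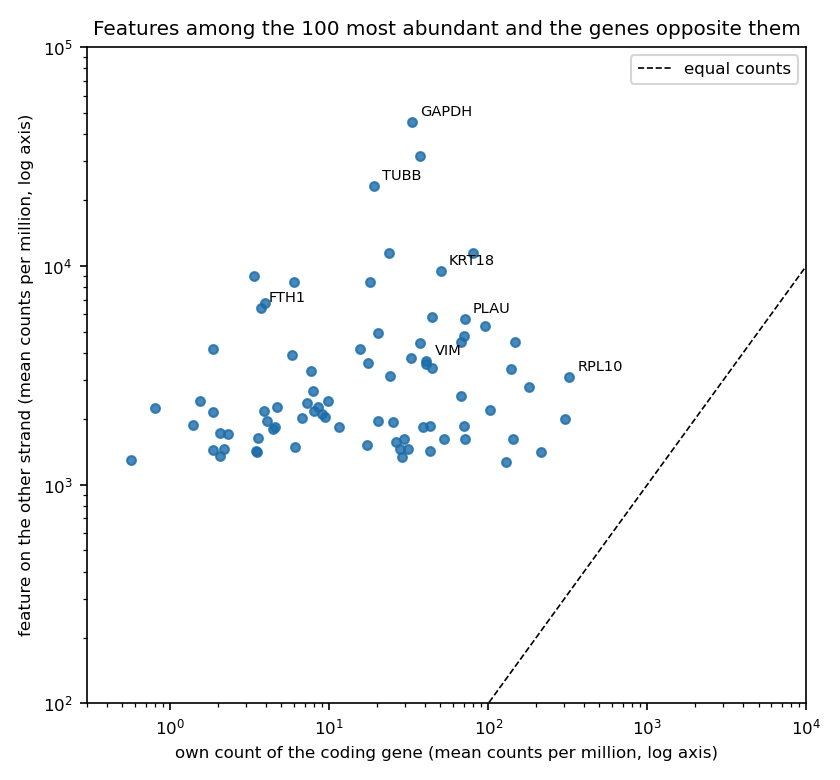
Mean CPM over the 4 untreated libraries of the features among the 100 most abundant (vertical log axis) against the own count of the largest coding gene opposite each (horizontal log axis), for the 80 features whose opposite gene had reads. Every point lies above the dashed line of equal counts, by 6.59 to 2807 times. The features were picked for their high counts, which favours this.

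The sequences in which such a feature and a gene share bases show how the reading works, and 3 from an abundant, a mesenchymal and an invasion gene are given from the GRCh38 (hg38) genome, 5′ to 3′ on the coding gene's strand. Capitals are bases that lie both in an exon of the feature on the minus strand and in a coding exon of the gene on the plus strand, and lower case is flanking sequence. They are the glycolytic gene GAPDH (chr12:6537774-6537883), the intermediate filament gene VIM (chr10:17229896-17229985) and the protease gene PLAU (chr10:73912195-73912284).
GAPDH: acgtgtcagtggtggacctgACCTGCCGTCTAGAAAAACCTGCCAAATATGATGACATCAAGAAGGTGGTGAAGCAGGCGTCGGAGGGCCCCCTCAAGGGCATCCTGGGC
VIM: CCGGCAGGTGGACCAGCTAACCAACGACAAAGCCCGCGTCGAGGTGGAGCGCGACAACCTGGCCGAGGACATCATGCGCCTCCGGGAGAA
PLAU: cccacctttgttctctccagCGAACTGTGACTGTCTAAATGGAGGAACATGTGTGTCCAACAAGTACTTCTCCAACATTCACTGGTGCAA

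The unbroken coding stretch shared by both strands was 192 bases for GAPDH, 563 for VIM and 70 for PLAU, of which up to 90 are printed. Over the 81 features the whole exon overlap with the largest opposite gene had a median of 762 bases and ran from 111 to 7634, and all 81 overlapped exons of that gene's canonical transcript by at least 30 bases. With the canonical transcript split into 3 equal parts, the middle of the overlap lay in the part nearest its start for 26 features, in the middle part for 23 and in the part nearest its end for 32, beside 35.9%, 23.4% and 40.7% of the 3693 features at 1 CPM or more that could be placed. Chromosome 17 carried 17 of the 85 features that matched GENCODE (20%), beside 8.72% of the 5112 features at 1 CPM or more with a coding exon opposite, and chromosome 11 carried 12 (14.1%, beside 6.03%). The sets are not alike: the 85 include members with no coding exon opposite, among them LRRC75A and ST6GALNAC2 on chromosome 17.

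A small number of features held much of the gene reads left after the mitochondrial ribosomal RNAs. Gene reads were themselves only 3.58% to 6.16% of the uniquely aligned reads, so these are not shares of all RNA. The first held 4.52% ± 0.455 (SD, n = 4) of the reads, the first 10 held 20.2% ± 3.13, the first 25 held 28.4% ± 2.83 and the 100 together 45.5% ± 1.98. Beyond them the levels fell without a step: the feature of rank 99 had 1294 CPM and that of rank 100 had 1269, and the next below, DNASE1 opposite TRAP1 and GLIPR1 opposite KRR1, had 1245 and 1241 CPM.

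**Figure D2:**
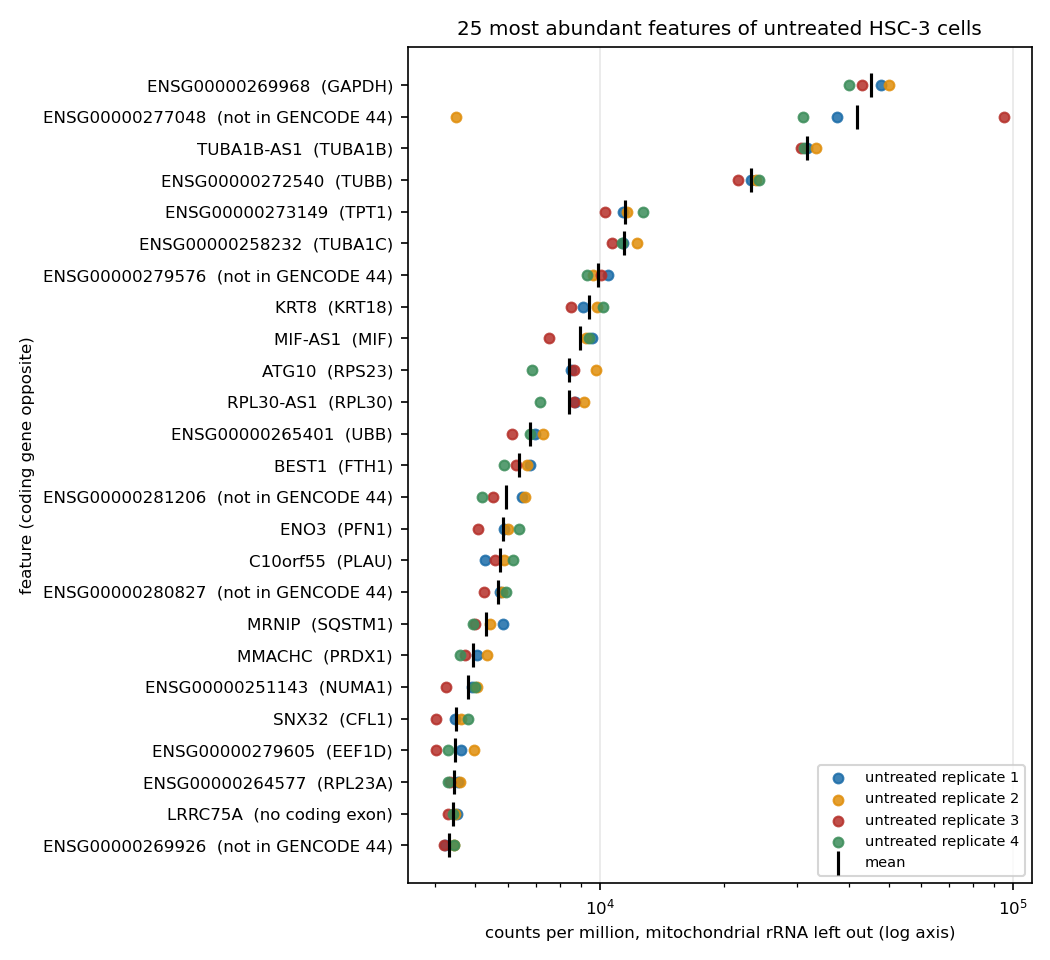
The 25 most abundant features of untreated HSC-3 cells, in CPM on a log axis, with 1 point for each library, a bar at the mean and the largest coding gene opposite in brackets. The points of a feature lie close together for all but ENSG00000277048, whose libraries run from 4489 to 94848 CPM.

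A glycolytic gene headed the ranking. GAPDH, which oxidises glyceraldehyde 3-phosphate in glycolysis, was read at ENSG00000269968, a long noncoding RNA on the minus strand of chromosome 12, at 47932, 49958, 43007 and 39980 CPM in replicates 1 to 4. This was the first rank, with a mean of 45219 ± 4552 CPM (SD, n = 4), and replicates 3 and 4 were the lower ones. GAPDH's own count was 32.98 ± 10.4 CPM. The other glycolytic genes gave little: of 17 listed, 4 could be read at a feature with 1 coding gene opposite, and PFKM, the muscle-type phosphofructokinase, was read at SENP1 at only 8.01 ± 2.94 CPM over exons outside its canonical transcript. Its own count was higher, 88.1 ± 9.44 CPM, but lies opposite 516 exon bases of SENP1 and cannot be told apart from reads of SENP1.

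Tubulins, the subunits of microtubules, came next. TUBA1B-AS1, opposite 1571 exon bases of TUBA1B and a few of TUBA1A, had 31693, 33414, 30644 and 31235 CPM. Its libraries differed by little, with a coefficient of variation (CV) of 3.75%. TUBB was read at ENSG00000272540 at 23201, 23852, 21551 and 24239 CPM, and TUBA1C at ENSG00000258232 at 11356, 12284, 10733 and 11341 CPM. The alpha and beta subunits together thus held 3 of the first 6 ranks. TUBB4B, another beta-tubulin, was read at FAM166A at 3835, 3713, 3400 and 2210 CPM, with replicate 4 well below the others.

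Actin-binding genes were read at abundant features too. PFN1, which encodes profilin, a protein that loads actin monomers, was read at ENO3 at 5851, 5991, 5082 and 6371 CPM. CFL1, which encodes cofilin, a severing factor of actin filaments, was read at SNX32 at 4474, 4629, 4018 and 4813 CPM. These features are themselves coding genes, ENO3 a muscle enolase and SNX32 a sorting nexin, so their names do not describe the counts that lie under them. ACTB, the cytoplasmic actin gene, had no single-gene feature opposite, and its own count of 22.9 ± 11.4 CPM gives no reading of its level. NUMA1, which organises the mitotic spindle, was read at ENSG00000251143 at 4796 ± 366 CPM and at LRRC51 at 1843 ± 97.04 CPM. Per kilobase of exon overlap these readings were 1738 and 5164 CPM, so they did not agree on that scale. Of 33 listed cytoskeletal genes, 15 could be read and all 15 reached 1 CPM.

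Among keratins, a gene of simple epithelia had the highest reading. KRT18, the type I keratin of simple epithelia, was read at its type II partner's locus: the feature named KRT8 had 9111, 9866, 8530 and 10182 CPM, and its 525 overlapping exon bases lie opposite KRT18. The 4 values spread by 7.91% of their mean, and KRT18's own count was 50.2 ± 13.03 CPM. How much of the KRT8 count is KRT8's own transcript cannot be told apart here. Read the other way, KRT8 had 50.2 CPM at the KRT18 feature, over exons that are not in its canonical transcript. KRT7, another simple keratin, was read at KRT7-AS at 49.1, 60.9, 52.0 and 50.7 CPM, about the same in each library. Basal keratins could hardly be read: KRT5 and KRT14, the pair of basal keratinocytes, had no single-gene feature opposite, and their own counts were 30.6 ± 14.5 and 9.59 ± 5.201 CPM. KRT13, a keratin of stratified mucosa, was read at 9.44 ± 4.64 CPM.

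Epithelial adhesion genes were present at moderate levels. CDH1, E-cadherin, was read at ENSG00000260798 at 178, 175, 179 and 181 CPM, a CV of 1.25% that became 5.05% with TMM-scaled library sizes. CDH3, P-cadherin, was read at CDH3-AS1 at 286, 295, 248 and 294 CPM, replicate 3 being the lowest. GRHL2 and ESRP2, a transcription factor and a splicing factor of epithelial cells, were read at 28.7 ± 2.83 and 77.9 ± 10.6 CPM. All 5 readable genes of 23 in the list exceeded 1 CPM. EPCAM and TP63 had no single-gene feature opposite, and their own counts, 1.64 ± 1.16 and 0.460 ± 0.549 CPM, do not show whether they were expressed. Of 24 genes of squamous differentiation 4 could be read, and only OVOL1, a transcription factor of epidermal maturation, exceeded 10 CPM, at 47.2, 61.7, 47.1 and 43.5 CPM. FLG, the filaggrin gene, was read at 1.63 ± 1.03 CPM, close to the level that a count of 0 allows, and its own count was 27.5 ± 6.04 CPM.

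Mesenchymal genes were read beside them. VIM, which encodes vimentin, had a pair of features opposite: VIM-AS1 with 3685, 3730, 2998 and 4290 CPM, and ENSG00000234961 with 3487, 3819, 3251 and 3658 CPM. Both had replicate 3 as the lowest by plain library size. With TMM-scaled library sizes the lowest value of ENSG00000234961 was that of replicate 4, at 3434 CPM. Divided by the overlaps of 656 and 619 bases, the VIM readings gave 5603 ± 807 and 5741 ± 392 CPM per kilobase. This difference was smaller than the spread between libraries. AXL, a receptor tyrosine kinase of mesenchymal-like tumour cells, was read at ENSG00000269652 at 745, 753, 631 and 761 CPM. SPARC, a secreted matrix protein, was read at CLMAT3 at 294 ± 19.1 CPM, and HMGA2, a chromatin protein of embryonic and tumour cells, at HMGA2-AS1 at 331 ± 54.2 CPM, though outside its canonical exons. CDH2, N-cadherin, had 26.2, 19.6, 20.9 and 25.3 CPM, below CDH1 in every library before and after division by overlap. Of the transcription factors of this programme, ZEB1 was read at 3.70 ± 1.88 CPM outside its canonical exons and ZEB2 had no read at its opposite feature in any library.

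Genes of secreted and surface proteins of invasion were read at some of the most abundant features. Ranks are among annotated features, and only 5423 of 20046 coding genes could be read. They do not place these genes among all transcripts of the cells. PLAU, the urokinase-type plasminogen activator, was read at C10orf55 at 5291, 5860, 5576 and 6178 CPM, rank 16. THBS1, thrombospondin, a matrix glycoprotein, was read at THBS1-AS1 at 3554, 3993, 3758 and 3848 CPM. Replicate 1 was the lowest for both. WTAPP1, a pseudogene transcript opposite MMP1 by 223 exon bases and MMP3 by 32, had 2213, 2298, 2196 and 2344 CPM, which cannot be divided between those matrix metalloproteinases. CD44, the hyaluronan receptor, was read at 1132 ± 44.9 CPM, ITGA6, an integrin of hemidesmosomes, at 549 ± 41.2 CPM and the tetraspanin CD151 at 564 ± 44.2 CPM. Of 34 listed genes 11 could be read, and 7 of these exceeded 100 CPM.

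Growth control genes of oral carcinoma were read on several chromosomes, and those of the segment of chromosome 11 that is often amplified in it were among the 100. CCND1, cyclin D1, was read at LTO1 at 3124, 3579, 3338 and 3421 CPM. FADD, an adaptor of death receptors that lies near CCND1, was read at ENSG00000254721 at 2147, 2163, 2092 and 2032 CPM. Their CVs were 5.63% and 2.81%, and 7.12% and 6.68% with TMM-scaled library sizes. Copy number was not measured here. CDK4, the kinase partner of cyclin D1, lay with AGAP2 opposite TSPAN31, which had 2201 ± 88.7 CPM.

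EGFR, the epidermal growth factor receptor, was read at EGFR-AS1 at 943, 868, 821 and 849 CPM, replicate 1 being the highest. PHLDA1 and DUSP6, genes induced by growth factor signalling, were read at 1159 ± 82.1 and 1138 ± 77.7 CPM. ERBB2 was read at MIEN1 at 30.3 ± 5.89 CPM, below its own count of 159 ± 15.98 CPM. The ERBB2 feature lies opposite 571 exon bases of MIEN1 and 144 of PGAP3, so that own count cannot be told apart from theirs. YAP1, a transcriptional coactivator, was read at 747 ± 16.8 CPM. CDKN2A, a cell cycle inhibitor often lost in oral cancer, was read at CDKN2B-AS1 at 1.97 ± 1.70 CPM, over exons outside its canonical transcript. All 13 of the 28 listed driver genes that could be read reached 1 CPM.

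Calcium genes matter in this series because CPA empties the stores that ORAI channels refill. The channel genes themselves were nearly unreadable: ORAI1, ORAI3 and the store sensor STIM2 had no single-gene feature opposite, and their own counts were 1.92 ± 0.836, 0.295 ± 0.229 and 0.460 ± 0.549 CPM. These values do not show how far the genes were expressed. STIM1, the other store sensor, was read at STIM1-AS1 at 2.18, 3.40, 3.74 and 6.04 CPM outside its canonical exons. ORAI2 was read at ALKBH4 at 1.21 ± 0.646 CPM over canonical exons. Its own count was 41.5, 45.2, 29.5 and 40.6 CPM, the higher of the pair in every library. That own count cannot be told apart from reads of ALKBH4, whose exons lie opposite. ITPR3, a channel that releases stored calcium, was read at UQCC2 at 711, 748, 686 and 709 CPM. CALR, calreticulin, a calcium-binding chaperone of the reticulum, was read at ENSG00000267458 at 1888, 2046, 1692 and 1672 CPM. All 13 readable genes of 30 in the list exceeded 1 CPM.

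Secretory pathway genes were represented among the 100 by more than calreticulin. PDIA6 and P4HB, protein disulfide isomerases, were read at 3911 ± 168 CPM at ATP6V1C2 and 2177 ± 134 CPM at ENSG00000262831. PPIB, a prolyl isomerase of the reticulum, was read at SNX22 at 4182, 4486, 3829 and 4089 CPM. Of the listed cytokines and pain mediators, PTHLH, parathyroid hormone-like hormone, was read at 497 ± 24.1 CPM, VEGFA at 113 ± 7.31 CPM and PTX3, a pentraxin, at 38.4 ± 5.65 CPM. IL6 was read at IL6-AS1 at 9.55, 11.5, 15.0 and 9.25 CPM, and LIF, a cytokine of the same family, at 4.62 ± 2.10 CPM. BDNF, a neurotrophin, was read at 32.3 ± 8.21 CPM. Of the 27 in that list 9 could be read, and 8 of them exceeded 1 CPM.

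Genes of the ribosome and of translation were among the 100. TPT1, which encodes the translationally controlled tumour protein, was read at ENSG00000273149 at 11365, 11625, 10303 and 12691 CPM. RPS23, of the small ribosomal subunit, was read at ATG10 at 8502, 9782, 8649 and 6861 CPM, and RPL30, of the large one, at RPL30-AS1 at 8721, 9179, 8682 and 7173 CPM. Replicate 4 was the lowest for both ribosomal genes. RPL23A was read at ENSG00000264577 at 4439 ± 148 CPM and the translation factor EIF5A at GPS2 at 3139 ± 108 CPM, while EEF1D shared ENSG00000279605, at 4476 ± 404 CPM, with NAPRT. Of 86 ribosomal protein genes 20 could be read, of which 19 exceeded 1 CPM and 8 exceeded 100 CPM, and of 16 translation factors 6 could be read, of which 2 exceeded 100 CPM.

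Iron, redox and protein turnover genes followed. FTH1, the heavy chain of ferritin, was read at BEST1 at 6770, 6653, 6268 and 5880 CPM. SQSTM1, the autophagy receptor p62, was read at MRNIP at 5834, 5427, 4986 and 4933 CPM, and PRDX1, a peroxiredoxin, at MMACHC at 5056, 5336, 4725 and 4594 CPM. In all of these, replicates 1 and 2 were above replicates 3 and 4 by plain library size. With TMM-scaled library sizes the FTH1 reading was 6682 CPM in replicate 3 and 6667 in replicate 2. UBB, a polyubiquitin gene, was read at 6791 ± 480 CPM. MIF-AS1, opposite the cytokine gene MIF and an overlapping coding locus, had 9598, 9276, 7548 and 9433 CPM, with replicate 3 the lowest. CCT5, of the cytosolic chaperonin, was read at 4176 ± 349 CPM. Of 23 listed iron, redox and thiol genes 9 could be read, and 8 of these exceeded 100 CPM.

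The remaining members lay opposite genes of the nucleus, of membranes and of adhesion. SRSF2 and SRSF9, splicing factors, were read at MFSD11 at 3577 ± 363 CPM and at GATC at 2005 ± 121 CPM. H2AZ1, a histone variant, was read at 1884, 1970, 1533 and 2076 CPM, with replicate 3 the lowest. DNAJC9, a histone chaperone, had 3394 ± 166 CPM and SMC4, a condensin subunit, 1611 ± 97.8 CPM. These are genes that dividing cells need, and they spread over the libraries by 6.06% to 12.6% of their means apart from DNAJC9 at 4.90%. Among membrane proteins, SLC25A5, the ADP/ATP carrier of mitochondria, was read at 1959 ± 156 CPM and SLC1A5, a glutamine transporter, at 1616 ± 170 CPM. PHB1, prohibitin, was read at 2402 ± 158 CPM. Of adhesion and actin signalling, ILK, the integrin-linked kinase, was read at TAF10 at 2786 ± 135 CPM, PXN, paxillin, at 1608 ± 55.03 CPM, and LASP1, an actin-binding adaptor, at 1493 ± 65.1 CPM.

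Values of genes with near-identical copies are uncertain. Alignments that were not unique were kept apart from gene counts in these files, so tubulin, ribosomal protein and GAPDH readings, whose genes have close paralogs or pseudogenes, may be too low or may be shared between copies.

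Levels between genes can be set side by side only per kilobase of exon overlap. On this scale, CPM per kilobase, GAPDH led at 107155 ± 10787 (SD, n = 4), before PFN1 at 52468 ± 4877 and TUBB at 43142 ± 2206. RPL23A at 28639 ± 955 and TUBB4B at 26526 ± 5988 followed. The SDs give the spread between libraries only, not the error of a reading per kilobase, so they cannot settle the order of genes. KRT18 stood at 17947 ± 1420, CD44 at 13481 ± 535, AXL at 10785 ± 917, CCND1 at 6772 ± 381, PLAU at 6258 ± 416, VIM at 5603 ± 807 and EGFR at 4680 ± 281. CDH3 with 523 ± 41.3 and CDH1 with 514 ± 6.42 stood well below these. The median over all 5423 genes read this way was 30.2 CPM per kilobase, and 3885 of them (71.6%) reached 1 CPM.

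The scale has limits that the files show. Short overlaps can give values that are too high if reads only partly inside them were counted. They were 67 bases for AXL, 84 for CD44, 111 for PFN1, 124 for TUBB4B and 155 for RPL23A. The labels do not state the counting mode. For 574 genes that had a pair of such features at 1 CPM or more, both log2 values per kilobase correlated with r = 0.460 across genes, which are not replicates, and 175 pairs lay within 2-fold. Overlaps without at least 30 bases of the canonical transcript had a median of 13.1 CPM per kilobase, beside 50.6 for the 3877 genes with them, so a low reading does not show that a gene was silent.

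**Figure D3:**
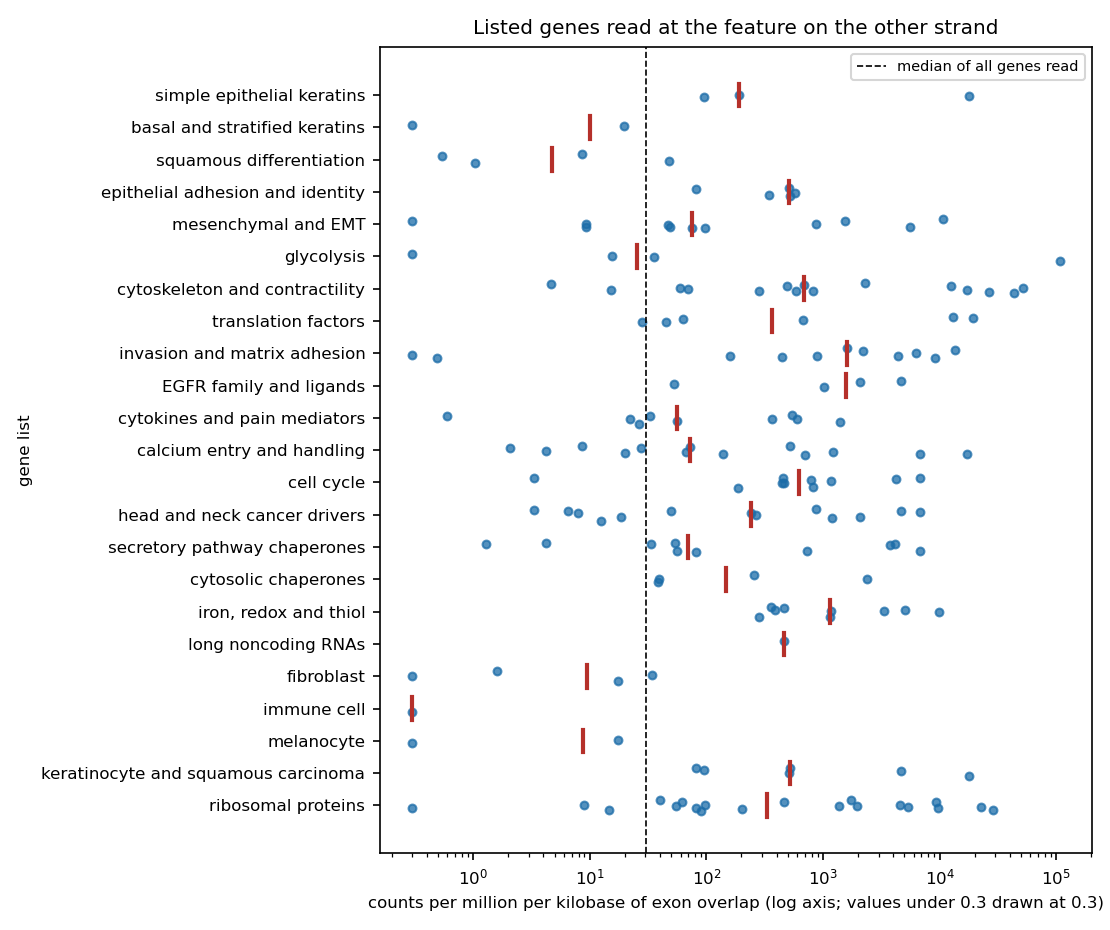
Listed genes read at the feature on the other strand in untreated cells, in CPM per kilobase of exon overlap on a log axis, with 1 point per gene (mean of 4 libraries), a red bar at each list's median and a dashed line at the median of 30.2 for all genes read. The medians of the cytoskeletal, invasion, EGFR and iron lists lie right of the line, and those of the basal keratin and squamous differentiation lists left of it.

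Across the lists, the median was 1602 CPM per kilobase for the invasion and matrix adhesion genes, 1563 for the EGFR family and its targets, 1158 for iron, redox and thiol genes, 690 for the cytoskeleton, 627 for the cell cycle and 514 for epithelial adhesion. It was 74.99 for the mesenchymal genes, 71.9 for calcium entry and handling, 68.9 for secretory pathway chaperones, 55.7 for cytokines and pain mediators, 25.6 for glycolysis, 9.92 for basal and stratified keratins and 4.78 for squamous differentiation. Only a minority of most lists could be read, so these medians describe the readable members alone.

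The label of an oral squamous carcinoma line was set against marker genes. Of 22 keratinocyte and squamous carcinoma markers 6 could be read, all above 1 CPM, with a summed level of 9825 to 11576 CPM in which KRT18 held the largest share. Few markers of other cell types could be read, and own counts do not show whether the rest were expressed. Of 12 fibroblast markers 4 could be read, at a summed level of 61.7 to 70.4 CPM in which ACTA2, smooth muscle actin, had 55.9 ± 2.98 CPM and FAP 11.1 ± 1.13 CPM, and the fibroblast markers COL1A1 and THY1 were read at 0.0935 and 0 CPM. Of 14 immune markers only LYZ could be read, at 0 CPM in 3 libraries and 0.523 CPM in the other, and the own counts of the immune markers summed to 21.3 to 34.04 CPM. No endothelial marker could be read, and their own counts summed to 5.24 to 12.1 CPM. Of 6 melanocyte markers PMEL had an own count of 221 ± 21.01 CPM, but PMEL shares its locus with CDK2 and its reading at the CDK2 feature was 1.54 ± 1.25 CPM. MITF, the regulator of melanocyte genes, had no read of its own in any library. KRT5, KRT14 and TP63, defining markers of squamous epithelium, could not be read, so the squamous label rests here on simple keratins, cadherins and EGFR, which other epithelial cells share.

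Of 24 listed long noncoding RNAs, TUG1 alone could be read, at ENSG00000269987, at 255, 257, 274 and 218 CPM. MALAT1 and NEAT1, nuclear noncoding RNAs, had own counts of 53.3 ± 26.6 and 4.57 ± 3.68 CPM, and neither could be read under this rule. Features in the 100 with no coding exon opposite included LRRC75A, opposite the small nucleolar RNA host gene SNHG29, with 4504, 4477, 4286 and 4409 CPM, and ST6GALNAC2, opposite a noncoding locus, with 3532 ± 153 CPM. GLRX5 lay opposite SNHG10 and SCARNA13 at 1662 ± 296 CPM. WDR38 was the only member inside a coding gene's body with no exon opposite.

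Among the 15 members without a GENCODE 44 entry, the highest was ENSG00000277048, whose level varied the most between the libraries of all 100. It had 37398, 4489, 94848 and 30982 CPM, in the same order as the share of mitochondrial ribosomal RNA apart from replicates 1 and 4, which were close in both. The non-unique alignments, 135, 55.6, 268 and 92.9 M, had replicate 3 highest and replicate 2 lowest too. What this feature is was not tested. The others were steadier: ENSG00000279576 had 10486, 9656, 10050 and 9331 CPM, ENSG00000281206 had 5944 ± 693 CPM, ENSG00000280827 had 5680 ± 291 CPM and ENSG00000269926 had 4324 ± 133 CPM. Without a current position, no opposite gene can be given for them.

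The abundant features were even over the libraries. Their CV had a median of 6.90%, beside 1.18% from counting error alone, and 68 of the 100 were under 10%. The median CV was 6.56% for the 138 features at 1000 CPM or more, 8.61% from 100 to 1000 CPM, 18.8% from 10 to 100 and 54.4% from 1 to 10, where counting error alone gives 34.3%. The low readings of STIM1, LIF and ZEB1 fall in the last of these ranges.

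By plain library size the smallest CV was that of IER3-AS1, opposite the early response gene IER3, with 1837, 1874, 1828 and 1812 CPM (CV 1.43%), followed by ENSG00000279159, opposite the lipid phosphatase gene MTMR3, at 1.55% and LRRC75A at 2.20%. This order rests on the scaling: with TMM-scaled library sizes these CVs were 5.68%, 5.08% and 4.34%, and SPAG5-AS1 at 1.37%, ENSG00000280827 at 1.99% and the TUBB reading at ENSG00000272540 at 2.15% were the smallest. By plain library size 3 members exceeded 20%, and with TMM CCDC73, opposite EIF3M, did so too at 21.04%. The 3 were ENSG00000277048 at 90.7%, WDR38 at 41.2% with 2481, 2617, 2025 and 820 CPM, and FAM166A opposite TUBB4B at 22.6%. In the last pair replicate 4 was the low library. Over the 100, replicate 3 was the lowest library for 65 features and replicate 2 the highest for 51. With TMM-scaled library sizes replicate 4 was the lowest for 55 and replicate 3 for 29, so which library is low depends on the scaling.

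**Figure D4:**
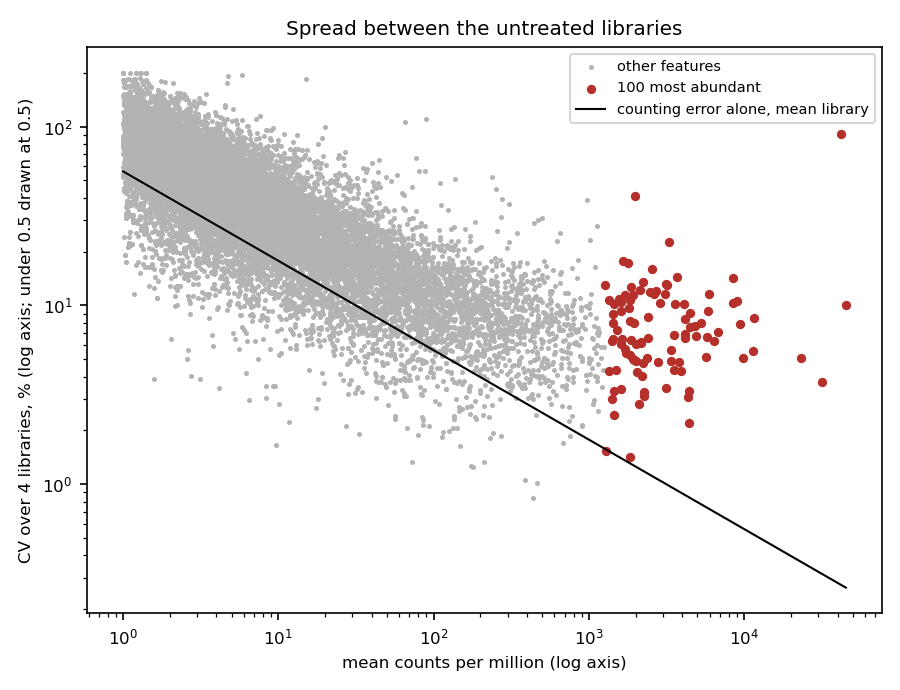
Coefficient of variation over the 4 untreated libraries (vertical log axis, percent) against mean CPM (horizontal log axis) for the 14100 features at 1 CPM or more, the 100 most abundant in red and the line for counting error at the mean library size. The red points have a median of 6.90%, and 3 exceed 20%, while the lowest, at 1.43% and 1.55%, lie near the line but had 5.68% and 5.08% with TMM-scaled library sizes.

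These levels served as the base for both drug comparisons, which share the untreated libraries and so are not independent of each other. Values here are CPM with library sizes TMM-scaled over all 12 libraries. The mitochondrial ribosomal RNAs were kept in them, so they are not on the scale of the TMM values above. Features were tested in 1 edgeR quasi-likelihood fit with Benjamini-Hochberg adjustment over 14911 features. A call needed an adjusted p under 0.05 and a 1.5-fold change. After CPA, 6 of the 100 members rose and 0 fell by this rule, beside 2.85% of all features called in either direction, 1.8% as rises and 1.05% as falls. DESeq2 also gave 6 and 0. At an unadjusted p under 0.05 in edgeR, 26 members were higher and 23 lower. At any fold, 30 of the 100 had an adjusted p under 0.05. The shares of all features at these thresholds were not counted. The median SE was 0.069 for the members and 0.52 for all features tested, so these counts do not set the members apart. The median size of the change was 0.14 on the log2 scale, beside 0.38 for all features tested, whose lower counts also carry larger errors.

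The rises after CPA included both vimentin readings. VIM-AS1 had 2802, 2848, 2471 and 3100 CPM in untreated cells and 5459, 4635, 5596 and 5648 after CPA, and the groups did not overlap (log2 fold change 0.92 ± 0.08 SE, adjusted p = 3.3e-12). ENSG00000234961 changed by 0.96 ± 0.07 (adjusted p = 6.3e-14). IER3-AS1 went from 1397, 1431, 1507 and 1309 to 2815, 2606, 2990 and 2771 CPM, a log2 fold change of 0.97 ± 0.07 (adjusted p = 1.4e-14). ALDH1A3-AS1, opposite the retinaldehyde dehydrogenase gene ALDH1A3, rose by 0.70 ± 0.07, and the features without an entry ENSG00000279576 and ENSG00000269926 by 0.72 ± 0.09 and 0.74 ± 0.07. The other 94 members were not called.

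After CPA with synta-66, 6 members rose and 3 fell, beside 2.9% of all features called, 1.66% as rises and 1.24% as falls. At an unadjusted p under 0.05 in edgeR, 33 members were higher and 10 lower, and 22 had an adjusted p under 0.05 at any fold. The shares of all features were not counted here either. Of the called rises, 3 were readings of listed secretory pathway chaperone genes, CALR, P4HB and PDIA6. CALR's feature went from 1436, 1563, 1395 and 1208 to 2542, 2774, 2583 and 2742 CPM, without overlap (log2 fold change 0.92 ± 0.07 SE, adjusted p = 3.0e-13). P4HB rose by 0.81 ± 0.07 and PDIA6 by 0.75 ± 0.07. Outside that list, MGAT2, a Golgi enzyme of N-glycan synthesis, rose by 0.79 ± 0.07 and PPIB by 0.69 ± 0.07, and ENSG00000269926, which has no entry, by 1.01 ± 0.07. ALDH1A3-AS1 fell by 1.30 on the log2 scale, from 1327, 1515, 1459 and 1399 to 502, 644, 622 and 545 CPM (adjusted p = 1.8e-17). THBS1-AS1 fell by 1.08, from 2703, 3049, 3097 and 2780 to 1325, 1437, 1347 and 1406 CPM, and ENSG00000259279, without an entry, fell by 0.98. ENSG00000277048 was not called in either comparison, with log2 fold changes of -1.93 ± 0.64 (adjusted p = 0.080) after CPA and 1.86 ± 0.64 (adjusted p = 0.10) with synta-66, and its groups overlapped. It was called as a fall after CPA with the replicate number as a block (-2.16 ± 0.39, adjusted p = 7.3e-05), and with synta-66 it was called as a rise under that block (1.38 ± 0.42, adjusted p = 0.048). Leaving out 1 library also brought it past the threshold, as without CPA replicate 1 (-3.03 ± 0.71, adjusted p = 0.0062) or, with synta-66, without untreated replicate 3 (2.74 ± 0.71, adjusted p = 0.017).

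**Figure D5:**
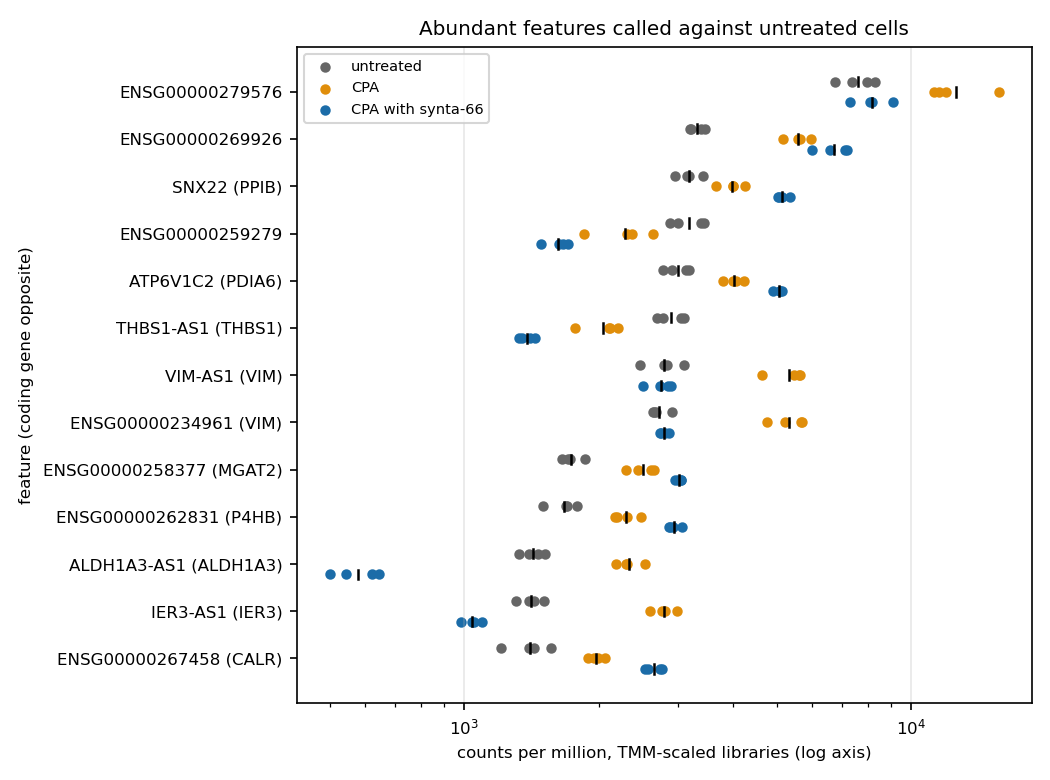
TMM-scaled CPM (log axis) in untreated cells (grey), after CPA (orange) and after CPA with synta-66 (blue) for the 13 members called in either comparison, with 1 point per library and a bar at each mean. In each called comparison the 4 treated libraries lie apart from the 4 untreated ones. The members were called on these same libraries, so this separation is no further evidence.

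The ranking itself was largely shared with the treated cells: 96 of the 100 members were also among the 100 most abundant features over all 12 libraries. The untreated libraries are part of those 12.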

How the data were processed

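RNA of untreated HSC-3 cells was sequenced in 4 libraries. The files give, for each gene, raw read counts deposited without normalization, which the authors made with Trimmomatic 0.32 (0.36 in the submitters' processing notes), STAR 2.5.2a and HTSeq 0.6.1p1 on Ensembl 84 of GRCh38, taking the library as stranded, per the labels' protocols. The 5 closing rows of unassigned reads (93.8% to 96.3% of unique alignments fell in no feature) were left out of CPM. The 2 mitochondrial ribosomal RNAs were left out of the untreated levels but kept in the counts and library sizes of the drug comparisons.

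Exons of each feature were compared with exons of coding genes on the other strand in GENCODE 44 (bedtools 2.31.1, at least 30 bases). Of 60675 identifiers 56558 matched, and differences from Ensembl 84 add error to overlap lengths. A gene was read at a feature when it was the single coding gene opposite, taking the feature with the most reads. Means and SDs are over the 4 libraries. The drug comparisons used edgeR 4.0.16 in R 4.3.3: all 12 libraries, group as the only term, TMM scaling, a minimum of 5 reads in 2 libraries of any group, quasi-likelihood tests and Benjamini-Hochberg adjustment. On simulated data with 14911 features, 6, 11, 29 and 38 of 50 features changed by 1.5, 2, 4 and 8-fold were recovered for CPA with 5 false calls, and 3, 13, 27 and 36 for CPA with synta-66 with 6.

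The members, gene lists and markers were chosen with earlier results of these data known. The rule for named genes takes the 25 most abundant features, up to 4 readable members of each list with the highest level per kilobase and 2 with the highest own count, 18 genes whatever their values, the members with the largest and smallest CVs, those at the edge of the 100, called members, and the most abundant features with no coding exon opposite. Other features and genes in the text were chosen after their values were seen. Alternatives were other scalings, overlap minima and filters, DESeq2 1.42.0, a replicate block and leaving out each library. Some members and listed genes are not reported here.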

Additional observations from a re-analysis of the deposited data

Results flagged for a closer look

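Of 198 features or genes with 4 untreated values that were examined, 14 had 1 library far from the other 3, and chance gives about 1 in 20. In each, the gap to the nearest library, as a share of the whole range, exceeded Dixon's 95% critical value for 4 values. These flags depend on the scaling: with TMM-scaled library sizes 11 features or genes had such a gap, and 3 did under both scalings, CENATAC, CSF1R and ENSG00000188525. Values below are by plain library size. Of the 100 most abundant features 5 were among them. MIF-AS1 was low in replicate 3 at 7548 CPM, with the others between 9276 and 9598, and ATP6V1C2, opposite PDIA6, was high in replicate 2 at 4160 CPM. Replicate 3 was low for SLC25A5-AS1 at 1725 CPM, for PPM1F-AS1 at 1573 CPM and for ENSG00000254452, opposite RAB1B, at 1237 CPM.

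Replicate 1 was low for the feature opposite DUSP6, ENSG00000274021, at 1021 CPM, and for VEPH1 opposite PTX3 at 30.01 CPM. Replicate 3 was low for the feature opposite AXL, ENSG00000269652, at 631 CPM, and for CLMAT3 opposite SPARC at 266 CPM. Replicate 4 was low for CENATAC, opposite the ribosomal gene RPS25, at 252 CPM beside 491 to 521 in the others, and for DDIT3, opposite MARS1, at 132 CPM. CSF1R's own count was high in replicate 3 at 25.1 CPM, that of CD68 in replicate 2 at 9.93 CPM, and ENSG00000188525, opposite GRHL1, in replicate 2 at 4.44 CPM.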

How the results depend on the processing

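The share of reads held by the 100 members, 45.5%, was 37.9% with the mitochondrial ribosomal RNAs in the library size and 43.2% without ENSG00000277048, an alternative chosen after seeing the data. It ran from 44.5% to 46.0% without each library in turn, and TMM, RLE, the median and a filter on low counts moved it by less than 1 SD. The 3885 genes read at 1 CPM or more became 3994 with 1 overlapping base, 3498 with 100, 4352 with the largest overlap where several genes lay opposite, and 3064 with canonical exons only, also added after seeing the data. Among the 100, CPA falls went from 0 to 1 with no filter on low counts, to 1 with a replicate block, and to between 0 and 1 when 1 library was left out (1 without untreated replicate 2 or 4, CPA replicate 1, or replicate 3 of CPA with synta-66). That feature was ENSG00000277048 each time. The block gave 441 calls for CPA and 418 for CPA with synta-66, beside 425 and 433. Same-numbered libraries correlated between -0.024 and 0.054 in their deviations, and differently numbered ones between -0.071 and 0.079. Most features had low counts with large counting error, so these values cannot decide whether replicate numbers pair the libraries. All 15 calls among the 100 held in each of the 18 alternatives to the fit. ENSG00000277048, called in neither comparison at first, passed the threshold in 6 of the 18 for CPA and 5 for CPA with synta-66, where its log2 fold change ran from -0.87 to 2.74. Depth limits readings under about 10 CPM.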
